A study of Mus musculus with 10 samples.

Results

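The collagen genes were followed in cochlear tissue, which holds the sensory cells for sound, from CBA/CaJ mice aged 6 months. Of 44 array features whose platform annotation named a collagen chain, 42 named that chain alone, each a different gene, and these 42 of 29766 genes tested were taken. They comprised 11 fibrillar, 9 FACIT (fibril-associated, with interrupted triple helices), 6 basement membrane and 16 other collagens. Col6a4 and Col7a1 shared their features with a further symbol and were not analysed here. RNA from powdered inner ear tissue was hybridised to 1 array per sample, 5 from singly housed mice with a running wheel (runners) and 5 from singly housed mice without one (controls). The series concerns long-term voluntary running and the hearing loss of ageing in this strain, which loses hearing late in life, but all 10 samples here came from young mice with normal hearing. The labels give neither the distance run nor whether a sample held 1 animal or several, so p-values measure the spread between samples. Values are log2 expression, with differences given as runner minus control and errors as SD of a group or standard error (SE) of a difference.

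Collagens are proteins of 3 chains wound into a triple helix. Fibrillar collagens form the cables of bone, cartilage, tendon and ligament, FACIT collagens sit on those cables, and type IV collagens form the sheet under epithelia and around vessels, muscle and nerve. In the inner ear, types II, IX and XI are known from the tectorial membrane and from cartilage, type I from the bony capsule, and type IV chains from the basement membranes of the stria vascularis and spiral limbus. Chains are made as precursors, hydroxylated and glycosylated in the endoplasmic reticulum, trimmed outside the cell and joined by lysyl oxidases.

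The arrays were alike in scale, with a median over all genes between 5.35 and 5.43 and Pearson correlations between arrays of 0.991 to 0.997. The values hold no true zero and the level of one probe set cannot be ranked against another. Genes of the spiral ligament and sensory epithelium were measured, among them Pou3f4 at 6.03, Tbx18 at 6.67, Otogl at 6.18 and Epyc at 7.99 in controls. Markers of neighbouring tissues were measured too, with Alas2 of red cell precursors at 9.80, Myh1 of skeletal muscle at 9.19 and Gabra6 of cerebellar granule cells at 10.6. In such bulk samples, fewer cells of a type and less RNA per cell cannot be told apart.

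Promoter windows from RefSeq (build GRCm38.p6) were matched for 33 of the 42 genes. The 250 bases before the annotated start are shown for Col1a2, Col3a1 and Col11a1, 3 fibrillar chains picked after their values were seen, to set out the control regions of genes that were lower together. Capitals mark the CCAAT box, the TATA box (TATAAA) and the GC box (GGGCGG), each searched on both strands.

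Col1a2, chr6:4505368-4505617, plus strand: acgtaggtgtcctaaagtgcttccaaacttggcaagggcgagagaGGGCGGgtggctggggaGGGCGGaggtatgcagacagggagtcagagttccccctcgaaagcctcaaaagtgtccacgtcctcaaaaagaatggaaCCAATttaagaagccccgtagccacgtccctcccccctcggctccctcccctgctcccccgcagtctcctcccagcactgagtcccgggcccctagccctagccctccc
Col3a1, chr1:45311288-45311537, plus strand: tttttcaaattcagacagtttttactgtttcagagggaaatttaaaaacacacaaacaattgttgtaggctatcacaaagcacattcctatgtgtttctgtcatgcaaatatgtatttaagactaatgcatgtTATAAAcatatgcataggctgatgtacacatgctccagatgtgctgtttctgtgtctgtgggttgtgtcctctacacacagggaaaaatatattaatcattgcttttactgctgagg
Col11a1, chr3:114030290-114030539, plus strand: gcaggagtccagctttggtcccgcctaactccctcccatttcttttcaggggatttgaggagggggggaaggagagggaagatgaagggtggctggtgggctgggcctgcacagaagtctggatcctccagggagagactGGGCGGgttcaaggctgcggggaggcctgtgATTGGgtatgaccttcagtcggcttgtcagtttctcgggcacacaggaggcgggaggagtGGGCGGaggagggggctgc

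The 3 windows did not share a layout. Col1a2 held CCAAT from 109 bases before its start and GGGCGG from 205 and 188 bases before it. Col11a1 held the reverse form ATTGG from 79 bases before its start and GGGCGG from 110 and 19. Col3a1 held TATAAA from 117 bases before its start. Over the 36 windows of collagen genes, 30.6% held the CCAAT box, 13.9% the TATA box and 55.6% the GC box, beside 33.8%, 12.4% and 32.7% of all 32851 windows. The matched letters did not overlap each other in these 3 windows, and a match is a description only.

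Collagen genes were lower in runners almost throughout the family. The difference was below 0 for 41 of 42 genes (39 with arrays centred on their medians, where Col4a6 and Col28a1 were above 0), beside 49.5% of all genes, and its median was -0.14, beside 0.00091 for all genes. At an unadjusted limma p under 0.05, 20 collagens were lower and 0 higher, where 3.92% of all genes were lower and 3.21% higher. None passed at a limma adjusted p under 0.05, where 0.00672% of all genes passed as lower, and their adjusted p ran from 0.172 to 0.996. Every runner lay below every control for 6 collagens, Col1a1, Col1a2, Col2a1, Col8a2, Col15a1 and Col25a1, beside 0.548% of all genes. Without runner 1, Col1a1 (-0.65, limma adjusted p = 0.0480), Col1a2 (-0.49, 0.0487) and Col11a1 (-0.43, 0.0170) passed, beside 55 lower and 44 higher genes in all. Without runner 1 and control 1, the same 3 passed, beside 292 lower and 134 higher genes in all. Genes of other lists passed there too, among them Cd79b, Fcrla, Alas2, Car1, Epyc, Tbx18, Dpp4 and Colgalt2. In that fit 21 collagens were lower at an unadjusted p under 0.05.

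**Figure D1:**
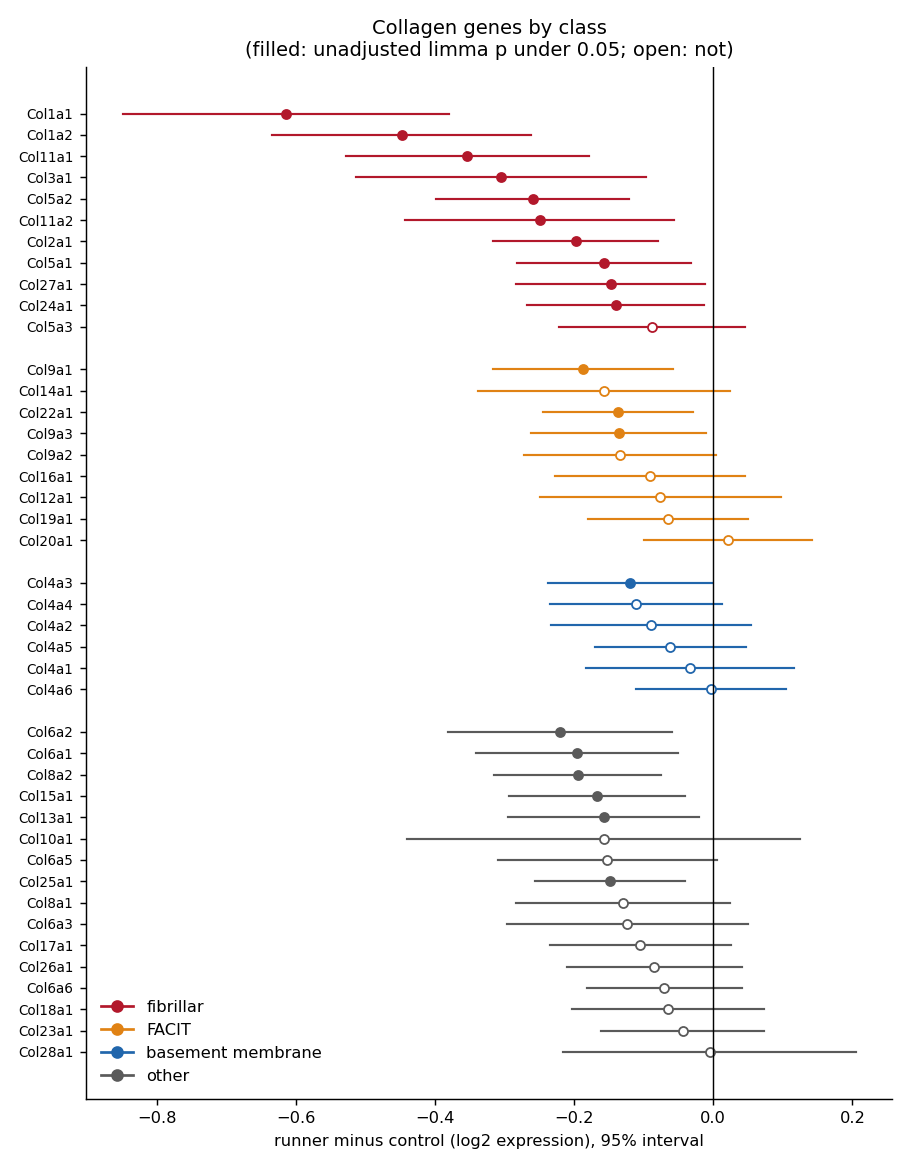
Runner minus control in log2 expression (x axis) for the 42 collagen genes (y axis), grouped and coloured by class, with 95% intervals from limma. Filled points have an unadjusted p under 0.05. The fibrillar genes reach furthest from 0, to -0.61 for Col1a1, and Col20a1 is the only point above 0, which Col4a6 and Col28a1 join with arrays centred on their medians.

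Fibrillar collagens differed most, with 10 of 11 lower at an unadjusted p under 0.05 and a median difference of -0.25. Averaged over the class, controls were at 6.73 ± 0.060 and runners at 6.46 ± 0.099 (SD, n = 5 each), which differ by -0.27 ± 0.052 (SE). Its 5 runners lay between 6.37 and 6.59 and its 5 controls between 6.64 and 6.79, so the groups did not overlap. Nor did they for the FACIT mean (controls 6.001 to 6.064, runners 5.855 to 5.983). The mean of all 42 collagens was also without overlap (controls 5.986 to 6.097, runners 5.816 to 5.976). In each of these means the gap between the groups was narrower than the spread of array medians (5.354 to 5.429). Whether the groups stay apart with other scalings is not given. In the mean of the 16 other collagens the groups overlapped (controls 5.768 to 5.891, runners 5.626 to 5.793).

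Col1a1 encodes the chain that makes up most of type I collagen, the main protein of bone. Its controls 1 to 5 were at 9.25, 9.30, 9.23, 9.49 and 9.03 and its runners 1 to 5 at 8.81, 8.55, 8.34, 8.91 and 8.63. All runners were below the lowest control, and control 5 and runner 4 were the nearest to each other. The difference was -0.61 ± 0.11 (SE; 95% interval -0.85 to -0.38) or 1.53-fold (limma adjusted p = 0.172). Col1a2, the partner chain in the same helix, was at 8.60, 8.63, 8.56, 8.83 and 8.45 in controls and 8.34, 8.03, 8.0, 8.31 and 8.15 in runners. The groups again did not overlap, and control 4 was highest and runner 3 lowest for both chains. Its difference was -0.45 ± 0.086 (95% interval -0.63 to -0.26) or 1.36-fold (limma adjusted p = 0.279).

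Types III and V accompany type I in soft connective tissue and set the width of its fibrils. Col3a1, the chain of type III, was at 7.08, 7.07, 6.95, 7.02 and 6.79 in controls and at 6.73, 6.47, 6.80, 6.45 and 6.92 in runners. Runners 3 and 5 lay above control 5, so the groups overlapped, and the difference was -0.31 ± 0.096 (limma adjusted p = 0.592). Col5a2 was at 6.07, 6.14, 6.08, 6.15 and 5.92 in controls and at 5.85, 5.67, 5.78, 5.82 and 5.93 in runners. Here control 5 and runner 5 were out of order by a narrow margin, and the difference was -0.26 ± 0.064 (limma adjusted p = 0.500). Its partner chain Col5a1 was at 6.30, 6.31, 6.25, 6.18 and 6.18 in controls and at 6.16, 6.00, 6.03, 6.05 and 6.18 in runners, with a difference of -0.16 ± 0.057. Col5a3, a chain of more restricted use, had the smallest difference of the class at -0.089 ± 0.062, the 1 fibrillar gene at an unadjusted p above 0.05.

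Types II and XI form the thin fibrils of cartilage and of the tectorial membrane. Col2a1, the chain of type II, was at 6.58, 6.61, 6.55, 6.52 and 6.49 in controls and at 6.45, 6.29, 6.27, 6.35 and 6.41 in runners. The groups did not overlap, and the difference was small at -0.20 ± 0.054 (limma adjusted p = 0.564). Col11a1, whose variants in mice and people impair hearing, was at 5.89, 5.96, 5.80, 6.02 and 5.85 in controls and at 5.85, 5.48, 5.45, 5.51 and 5.47 in runners. Runners 2 to 5 lay close together and below every control, while runner 1 lay among the controls. Its difference was -0.35 ± 0.081 over all arrays (limma adjusted p = 0.473). Col11a2, the second chain of type XI, showed the same placing of runner 1, with controls at 7.0, 7.03, 6.97, 6.90 and 6.89 and runners at 7.02, 6.63, 6.58, 6.5 and 6.81 (difference -0.25 ± 0.089). The fibrillar chains Col24a1 and Col27a1 differed by -0.14 ± 0.059 and -0.15 ± 0.063.

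**Figure D2:**
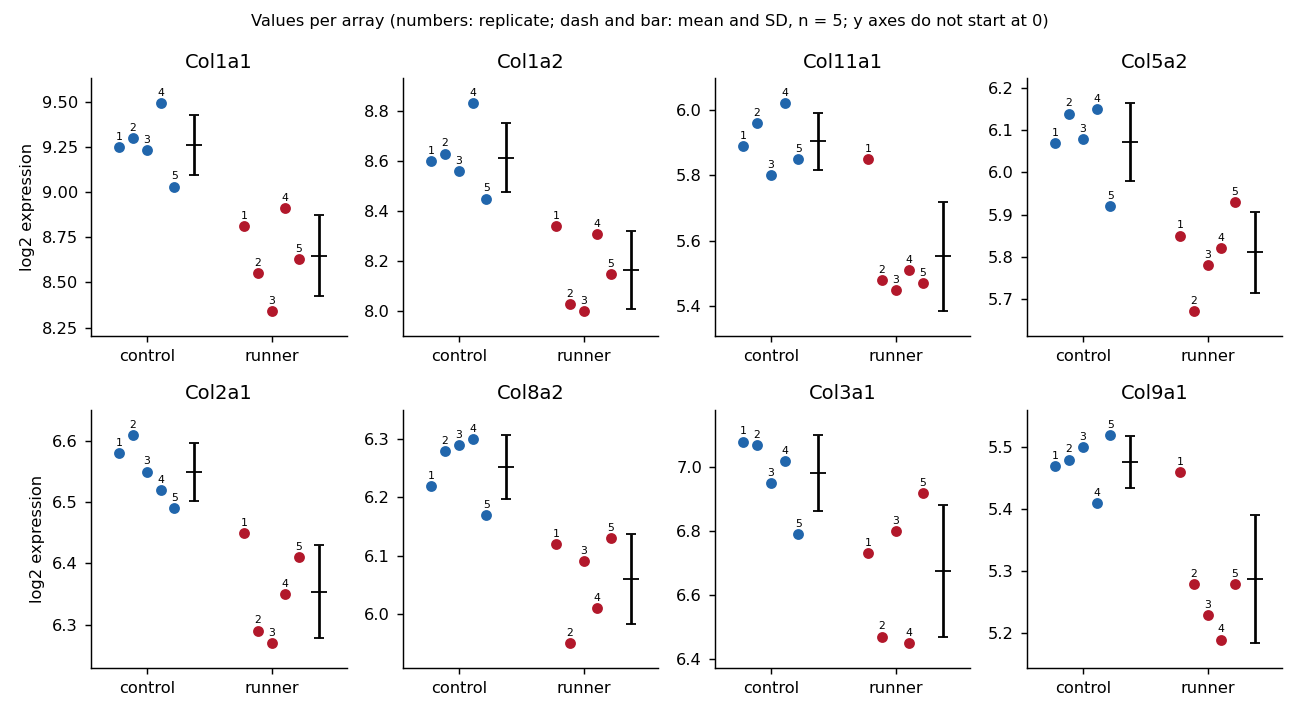
Log2 expression (y axes, not starting at 0) on each of the 10 arrays for the 8 collagens with an unadjusted p under 0.01. Points are arrays numbered by replicate, and dashes with bars are group means and SD (n = 5). Runners lie below all controls for Col1a1, Col1a2, Col2a1 and Col8a2, and runner 1 lies among the controls for Col11a1 and Col9a1.

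FACIT collagens were lower in 8 of 9, of which 3 had an unadjusted p under 0.05, with a median difference of -0.13 and a class mean that differed by -0.11 ± 0.029 (SE). The count of 3 was 5 without runner 1. It was 4 with array weights or without runner 5, control 4, or runner 1 and control 1. It was 2 with median centring, with dim genes left out, or without runner 2, 3 or 4 or control 1, 2 or 5. The members with smallest p were chains of type IX, which coats type II fibrils, and Col22a1, a collagen of tissue junctions. Col9a1 was at 5.47, 5.48, 5.5, 5.41 and 5.52 in controls and at 5.46, 5.28, 5.23, 5.19 and 5.28 in runners. Runners 2 to 5 were below every control and runner 1 was not, as for Col11a1, and the difference was -0.19 ± 0.059 (limma adjusted p = 0.592). Col9a2 was at 6.64, 6.69, 6.68, 6.54 and 6.63 in controls and at 6.62, 6.41, 6.54, 6.34 and 6.59 in runners, a difference of -0.13 ± 0.064, and Col9a3 differed by -0.14 ± 0.058. Col22a1 differed by -0.14 ± 0.050. Of the FACIT chains of type I fibrils, Col14a1 differed by -0.16 ± 0.084 and Col12a1 by -0.076 ± 0.080, the latter less than its SE. Col16a1 and Col19a1 differed by -0.091 ± 0.063 and -0.065 ± 0.053. Col20a1 was the 1 collagen above 0, at 0.021 ± 0.056, a value of either sign within its 95% interval of -0.10 to 0.14.

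Basement membrane collagens had the smallest differences of the 4 classes, with a median of -0.076 and 1 of 6 at an unadjusted p under 0.05. Averaged over the class, controls were at 5.38 ± 0.045 and runners at 5.31 ± 0.081 (SD, n = 5 each), which differ by -0.070 ± 0.041 (SE) with overlap. Col4a1 and Col4a2, the chains of nearly all basement membranes, differed by -0.033 ± 0.069 and -0.090 ± 0.066, with 95% intervals of -0.18 to 0.12 and -0.23 to 0.055. A fall of the size of Col1a1 lies outside both intervals, while a small fall does not. Col4a1 was at 6.19, 6.14, 6.14, 6.10 and 6.06 in controls and 6.20, 5.92, 6.06, 6.01 and 6.27 in runners, so runners 1 and 5 were its highest arrays. Col4a3 and Col4a4, chains whose loss causes kidney disease with hearing loss in Alport syndrome, differed by -0.12 ± 0.054 (limma adjusted p = 0.690) and -0.11 ± 0.057. Col4a5, the X-linked gene of the same syndrome, differed by -0.062 ± 0.050 and its neighbour Col4a6 by -0.0034 ± 0.050. All 6 were below 0, and 5 with arrays centred on their medians. The count of 1 (Col4a3) became 0 without runner 2, 3 or 4 or control 1, 2, 3 or 5, and 2 without runner 5 or control 4. It was also 0 with repeated quantile normalization, median centring, array weights, dim genes left out, the replicate number as a block, or runner 1 and control 1 left out, and 2 with no moderation.

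All 16 other collagens had a difference below 0 (15 with arrays centred on their medians, Col28a1 above 0), with 6 at an unadjusted p under 0.05, a median of -0.14 and a mean that differed by -0.13 ± 0.039 (SE). Type VI collagen, the beaded filament around cells, gave 2 of these. Col6a2 was at 6.89, 7.03, 6.79, 6.93 and 6.83 in controls and 6.65, 6.5, 6.67, 6.67 and 6.89 in runners, and differed by -0.22 ± 0.074. Col6a1 differed by -0.20 ± 0.067, and for both chains 4 of 5 runners lay below all controls and runner 5 did not. Col6a3, Col6a5 and Col6a6 differed by -0.12 ± 0.080, -0.15 ± 0.073 and -0.070 ± 0.051.

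The network collagens were mixed in their spread. Col8a2, known from the membrane under the corneal endothelium, was at 6.22, 6.28, 6.29, 6.30 and 6.17 in controls and at 6.12, 5.95, 6.09, 6.01 and 6.13 in runners. The groups did not overlap, and the difference was -0.19 ± 0.055 (limma adjusted p = 0.583). Its partner Col8a1 was at 6.00, 6.12, 5.86, 6.03 and 5.94 in controls and 6.07, 5.83, 5.84, 5.77 and 5.79 in runners, a difference of -0.13 ± 0.071 with runner 1 among the controls. Col10a1, the collagen of hypertrophic cartilage, had the widest error of the family, with 5.21, 5.26, 4.76, 5.29 and 4.80 in controls against 5.28, 4.84, 4.89, 4.69 and 4.84 in runners and a difference of -0.16 ± 0.13.

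Transmembrane collagens were lower in 4 of 4, with Col25a1, an amyloid-binding collagen of neurons, at -0.15 ± 0.050 and Col13a1, a collagen of the neuromuscular junction, at -0.16 ± 0.063. Col25a1 was at 5.32, 5.30, 5.21, 5.22 and 5.25 in controls and 5.18, 5.06, 5.08, 5.12 and 5.12 in runners, without overlap. Col17a1 of hemidesmosomes and Col23a1 differed by -0.10 ± 0.060 and -0.044 ± 0.054. Of the collagens bound to basement membranes that release antiangiogenic fragments, Col15a1 differed by -0.17 ± 0.058 without overlap, and Col18a1 by -0.066 ± 0.064. Col26a1 and Col28a1 differed by -0.085 ± 0.058 and -0.0053 ± 0.097.

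Probe sets of high and of low signal alike were lower, a split by signal that does not rank the genes by level. Of the 42 genes, 29 had a mean at or above 5.40, the median of all gene means, of which 28 were lower and 15 had an unadjusted p under 0.05 (median difference -0.15). Of the 13 below it, 13 were lower and 5 had an unadjusted p under 0.05 (median -0.10).

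Several small differences, all at an unadjusted p above 0.05, moved by over 1.5 times with 1 array left out. Col10a1 ran from -0.25 without runner 1 to -0.100 without control 4, and Col12a1 from -0.12 without control 3 to -0.021 without control 4. Col18a1 ran from -0.10 without runner 5 to -0.034 without runner 2, and Col23a1 from -0.063 without runner 5 to -0.013 without runner 2. Col4a2 ran from -0.14 to -0.057, Col6a3 from -0.19 to -0.080 and Col26a1 from -0.12 to -0.054.

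By array, the family was low in runners 2, 3 and 4 and near the middle in runners 1 and 5. The mean deviation of the 42 genes from the mean of the 10 arrays was 0.11, 0.13, 0.057, 0.063 and 0.018 in controls 1 to 5. It was -0.0006, -0.15, -0.11, -0.12 and 0.0078 in runners 1 to 5. Runner 2 was the lowest array for 18 genes, runner 3 for 12 and runner 4 for 10, while control 2 was the highest for 14. Runner 5 was the highest array for 7, which were Col4a1, Col4a2, Col4a5, Col4a6, Col6a3, Col18a1 and Col28a1, and in fibrillar genes it lay at -0.056. The basement membrane mean was at 0.077 in that array.

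**Figure D3:**
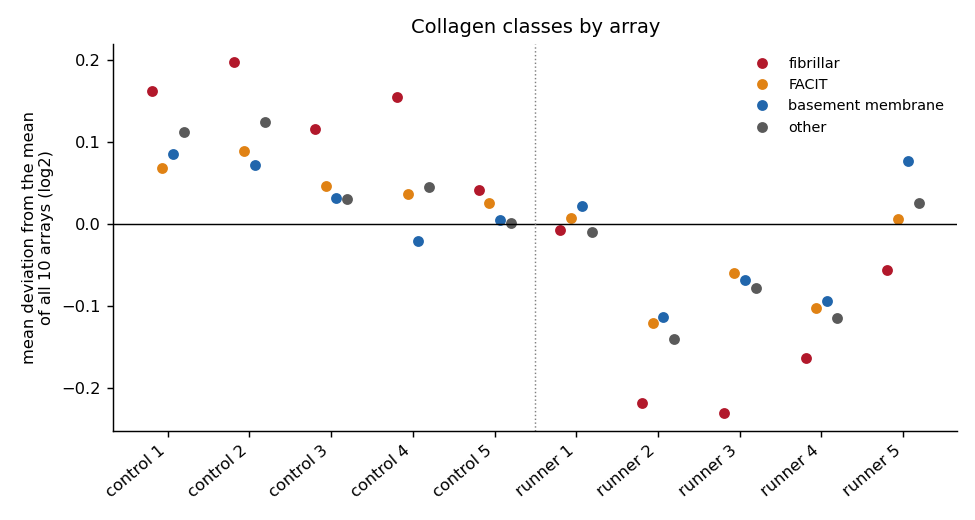
Mean deviation of each collagen class from the mean of all 10 arrays in log2 (y axis) for each array (x axis, controls left of the dotted line). Fibrillar genes are above 0 in all 5 controls and below 0 in all 5 runners, and basement membrane genes are at 0.077 in runner 5.

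Chains that join the same helix were compared across arrays after each group's mean had been subtracted, which leaves out the difference between runners and controls. Of 10 pairs, 4 varied together at an adjusted exact permutation p under 0.05 (two-sided, permuted within groups, adjusted over the 10 pairs). The test is against no correlation, whereas most pairs of collagen genes had an r above 0. The share of all collagen pairs that would pass is not given, so the count is not a trait of partner chains alone. Col1a1 with Col1a2 had r = 0.95 (rho = 0.95, n = 10, exact permutation p = 0.00042 and 0.00035, adjusted 0.0021 and 0.0031), and r = 0.97 without the 2 arrays farthest from the median of Col1a1. Col6a1 with Col6a2 had r = 0.92 (rho = 0.92, exact permutation p = 0.00042 and 0.00063, adjusted 0.0021 and 0.0031). Without the 2 farthest arrays its r was 0.77 and the call ended (adjusted exact permutation p = 0.056). Col4a1 with Col4a2 had r = 0.95 (rho = 0.92, exact permutation p = 0.0018 and 0.0067, adjusted 0.0045 and 0.022). Without them its r was 0.88 and the call ended (adjusted exact permutation p = 0.083). Col4a3 with Col4a4 had r = 0.88 (rho = 0.81, exact permutation p = 0.0015 and 0.015, adjusted 0.0045 and 0.036). Without them its r was 0.84 and the call ended (adjusted exact permutation p = 0.083), as it did with repeated quantile normalization (0.061) and median centring (0.052).

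The other 6 pairs did not pass. Col9a1 with Col9a2 had r = 0.71 (rho = 0.67, adjusted exact permutation p = 0.092 and 0.074), Col5a1 with Col5a2 had r = 0.69 (rho = 0.67, adjusted 0.075 and 0.087) and Col4a5 with Col4a6 had r = 0.63 (rho = 0.64, adjusted 0.14 for each). Col11a1 with Col11a2 had r = 0.68 (rho = 0.42, adjusted exact permutation p = 0.14 and 0.34), which rested on 1 array and was -0.11 without runner 1. Col2a1 with Col11a1, chains that meet in type XI, had r = 0.58 (rho = 0.59, adjusted 0.14 for each), and Col8a1 with Col8a2 had r = 0.34 (rho = 0.24, adjusted exact permutation p = 0.41 and 0.54). Over all 861 pairs of collagen genes the median r was 0.45 (quartiles 0.19 and 0.65) and 86.6% were above 0. These points share their arrays. On the chromosome, the members of the passing pairs of types IV and VI are neighbours among protein-coding genes, whereas Col1a1 and Col1a2 are not. Col4a1 and Col4a2 lie head to head on opposite strands with annotated starts 21 bases apart, and Col4a5 and Col4a6 likewise with 1343 bases between starts (GRCm38.p6).

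**Figure D4:**
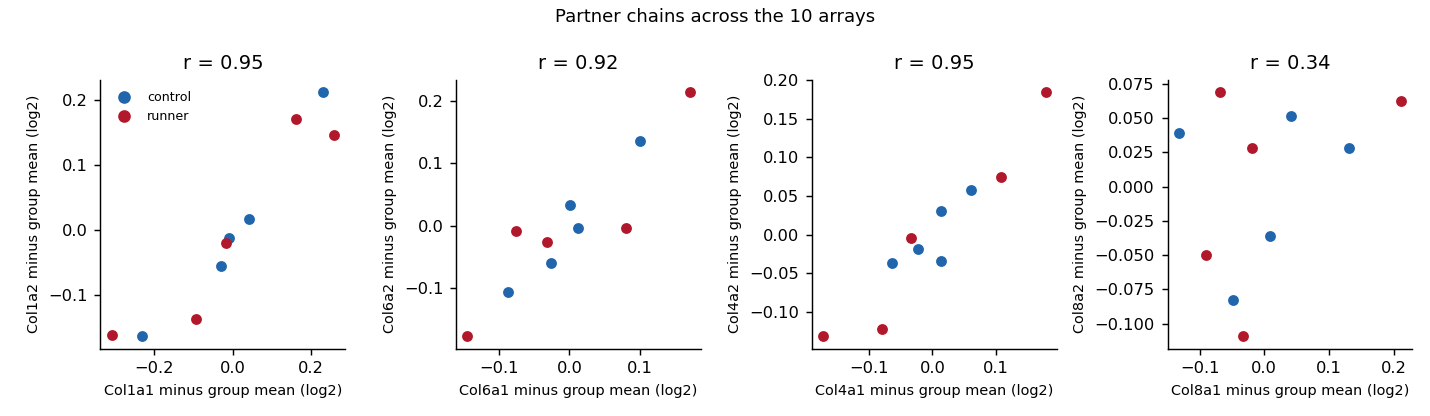
Log2 expression minus the group mean for 4 pairs of partner chains, the first chain on the x axis and the second on the y axis, with 1 point per array (control blue, runner red, n = 10). The type I, VI and IV pairs follow a line (r = 0.95, 0.92 and 0.95), and Col8a1 with Col8a2 scatters (r = 0.34).

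Of the genes that modify, trim, join or bind collagen, 0 passed at a limma adjusted p under 0.05. The counts for these lists and for the markers stand against 49.5% of all genes below 0 and, at an unadjusted p under 0.05, 3.92% lower and 3.21% higher. Of 19 measured genes of chain modification and folding, 13 had a difference below 0 (12 with median centring or repeated quantile normalization), with a median of -0.056. At an unadjusted p under 0.05, 2 were lower and 0 higher. These were the collagen galactosyltransferase gene Colgalt2 (-0.31 ± 0.086) and Crtap (-0.20 ± 0.072), part of the prolyl 3-hydroxylation complex. P4hb, a subunit of prolyl 4-hydroxylase, and Colgalt1 differed by -0.15 ± 0.080 and -0.12 ± 0.068. The count of 2 was 1 without control 2. It was 3 with no moderation, repeated quantile normalization or array weights. It was also 3 without runner 1, without runner 5, or without runner 1 and control 1.

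Of 9 measured genes of propeptide trimming, 5 were below 0 (4 with median centring and 6 with repeated quantile normalization), near the share of all genes, with 1 lower and 1 higher at an unadjusted p under 0.05 (median -0.014). The lower was Pcolce, an enhancer of C-propeptide cleavage (-0.14 ± 0.059), and the higher was the protease gene Tll1 (0.34 ± 0.12). Pcolce2 and the C-proteinase gene Bmp1 differed by -0.073 ± 0.078 and 0.088 ± 0.097. With 1 array left out Bmp1 ran from 0.019 (without runner 2) to 0.18 (without runner 1) and Pcolce2 from -0.11 to -0.0071. The count of 1 lower gene became 0 with median centring and without runner 3, runner 4 or any of controls 1, 2, 4 and 5. All 4 measured lysyl oxidases were below 0, with 0 at an unadjusted p under 0.05 in limma, at -0.16 ± 0.076 for Loxl1, -0.096 ± 0.099 for Lox, -0.095 ± 0.055 for Loxl4 and -0.048 ± 0.052 for Loxl3. That count was 1 with trended and robust moderation or without runner 5 or control 1, and 2 without runner 1, with or without control 1.

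All 9 measured collagen receptors and uptake genes were below 0 (8 with either other scaling, Itga10 above 0), with 2 at an unadjusted p under 0.05 (median -0.11). They were Mrc2, which takes up cleaved collagen (-0.24 ± 0.078), and Gp6, the platelet collagen receptor (-0.37 ± 0.13). The fibril receptor Ddr2 and the integrin chain Itga11 differed by -0.16 ± 0.096 and -0.098 ± 0.068. The count was 4 without runner 1, with or without control 1. Of 7 measured transcription factors of collagen genes, 6 were below 0 (5 with either other scaling) and 1 had an unadjusted p under 0.05 (median -0.11). This was Sp7, the osteoblast factor osterix (-0.26 ± 0.078), followed by the cartilage factors Sox9 (-0.21 ± 0.12) and Sox6 (-0.11 ± 0.10) and by Creb3l1 (-0.11 ± 0.081). The count was 2 without runner 1 or runner 2 or with array weights, and 3 without runner 1 and control 1.

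Markers of several collagen-making and other cells also differed, and their part in the collagen differences was not tested. Of 7 measured osteoblast markers, 6 were below 0 and 5 had an unadjusted p under 0.05. Bglap (-0.85 ± 0.066) and Bglap2 (-0.95 ± 0.083), near-identical osteocalcin genes whose probes may share transcripts, passed (limma adjusted p = 0.00040 and 0.00081). With no moderation of the variances Bglap2 did not pass (adjusted p = 0.075) and Bglap did (0.023). Their list mean lay between 7.79 and 7.96 in controls and between 7.32 and 7.70 in runners. The 8 spiral ligament fibrocyte markers were all below 0 and 5 had an unadjusted p under 0.05, with Tbx18 (-0.37 ± 0.13) and Pou3f4 (-0.35 ± 0.13) first, and a list mean of 8.37 to 8.60 in controls and 7.91 to 8.64 in runners. The 9 sensory epithelium markers were all below 0, 4 of them at an unadjusted p under 0.05, with Epyc (-0.52 ± 0.15) and Otogl (-0.41 ± 0.15) first, and a list mean of 6.12 to 6.43 in controls and 5.71 to 6.41 in runners. In both of these lists runner 1 was high, by 0.55 and 0.51 above the mean of the other runners, beside 0.16 in fibrillar collagens. It was above that mean in most lists, by 0.40 in erythroid, 0.35 in B lineage, 0.30 in Schwann cell and 0.28 in osteoblast markers. It was below it in brain (-0.31) and skeletal muscle (-0.19) markers and in propeptide trimming genes (-0.084).

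Of 8 chondrocyte markers 6 were below 0 (5 with either other scaling) and 1, Cnmd (-0.30 ± 0.11), had an unadjusted p under 0.05, followed by Sox9, with list means of 6.05 to 6.19 in controls and 5.96 to 6.12 in runners. Of 7 tendon and fibroblast markers 6 were below 0 (5 with either other scaling) and 2 had an unadjusted p under 0.05, Dpp4 (-0.35 ± 0.095) and Tnmd (-0.34 ± 0.096), with list means of 6.07 to 6.35 and 5.92 to 6.13. The 8 endothelial markers, with Vwf (-0.12 ± 0.065) and Emcn (-0.21 ± 0.11) first, were all below 0 and 0 had an unadjusted p under 0.05 in limma (6.61 to 6.79 and 6.52 to 6.73). Pericyte and smooth muscle markers were lower in 4 of 8 (6.71 to 6.88 and 6.77 to 6.92), Schwann cell markers in 4 of 5 (7.37 to 7.67 and 7.26 to 7.70) and skeletal muscle markers in 6 of 8 (8.11 to 8.89 and 8.09 to 9.12), with 0 at an unadjusted p under 0.05 in limma in each. Myh11 (0.21 ± 0.095), Acta2 (0.13 ± 0.086), Sox10 (-0.14 ± 0.10), Pmp22 (-0.14 ± 0.11), Myh1 (-0.12 ± 0.19) and Tnnt3 (-0.11 ± 0.20) led these lists.

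Marrow and brain markers were measured as well. All 7 B lineage markers were lower at an unadjusted p under 0.05, with Fcrla (-0.71 ± 0.11) and Cd79b (-0.66 ± 0.11) first and list means of 6.40 to 6.80 in controls and 5.85 to 6.37 in runners. All 7 erythroid markers were below 0 and 2, Car1 (-0.31 ± 0.12) and Alas2 (-0.25 ± 0.10), had an unadjusted p under 0.05 (7.98 to 8.48 and 7.83 to 8.37). Brain markers were above 0 in 5 of 7 (6 with either other scaling) with 0 at an unadjusted p under 0.05 in limma, led by Gabra6 (0.24 ± 0.13) and Calb1 (0.12 ± 0.10) (7.75 to 7.93 and 7.68 to 8.15).

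**Figure D5:**
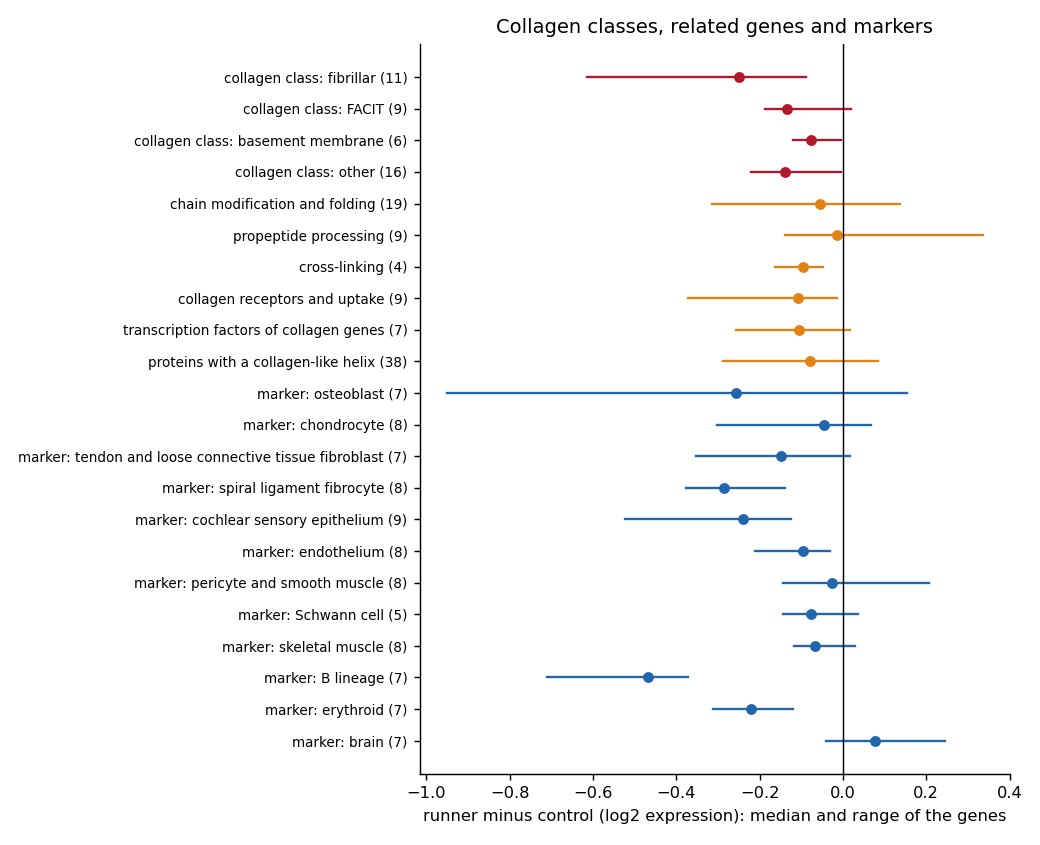
Median (point) and range (line) of runner minus control in log2 (x axis) for the collagen classes (red), other collagen-related genes (orange) and cell type markers (blue), with the number of genes measured in parentheses. The fibrillar median is at -0.25, beside -0.26 for osteoblast, -0.29 for spiral ligament, -0.24 for sensory epithelium, -0.47 for B lineage and -0.22 for erythroid markers. Other marker medians are -0.15 for tendon and fibroblast, -0.097 for endothelial, -0.077 for Schwann cell and -0.068 for skeletal muscle markers. Chondrocyte markers are at -0.045, pericyte and smooth muscle markers at -0.026 and brain markers at 0.078.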

How the data were processed

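Each array's values are on the log2 scale, 1 per probe set, as the authors deposited them. The submitters' processing notes name RMA and Partek, with no version. For chip, build and filters nothing is given in the sources used here. RMA makes the distributions of the arrays alike, which would hide a change common to most genes, and can shrink differences of dim genes.

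Of 39295 probe sets, the 30130 with 1 symbol were used (symbols updated through RefSeq for 827, 0 of them collagens), keeping the highest mean per gene. All 29766 genes were fitted with limma 3.58.1 in R 4.3.3 (lmFit, eBayes, two-sided, Benjamini-Hochberg over all genes), and the code was tested on simulated data. Counts at an unadjusted p under 0.05 are descriptions, to be read against the share of all genes. That share is given only for the fit just described, so counts under the alternatives have none beside them. Alternatives were other scalings, moderations, probe set rules, array weights, a filter on dim genes, a replicate block and left-out arrays.

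Members, lists and alternatives were chosen with earlier results of these data known. Values per array are given for collagens with an unadjusted p under 0.01 and their partner chains. The 4 genes of smallest p are named in each related list and 2 in each marker list. Values per array of Col4a1, Col6a2, Col10a1 and Col25a1, and the tissue genes, were chosen after their values were seen. Correlations used Python 3.11.15 with scipy 1.17.1, and figures matplotlib 3.10.9.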

Additional observations from a re-analysis of the deposited data

Results flagged for a closer look

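In 5 of the 84 groups of collagen values (42 genes in 2 groups of 5), 1 array lay far from the other 4, where about 1 in 20 groups would stand out so by chance. Runner 1 was high for Col11a1, at 5.85 where the other runners lay between 5.45 and 5.51, and for Col8a1, at 6.07 where they lay between 5.77 and 5.84. Runner 2 was low for Col12a1, at 6.92 with the others between 7.13 and 7.20. Control 4 was low for Col4a6, at 4.23 with the others between 4.30 and 4.32, and control 2 was high for Col23a1, at 6.12 with the others between 6.01 and 6.04.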

How the results depend on the processing

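The number of collagens past an adjusted p under 0.05 was 0 to 3 as each array was left out, the 3 without runner 1, and it was 3 without runner 1 and control 1. It was 0 under the other alternatives, including an adjusted p under 0.10. Between 15 and 23 collagens were lower at an unadjusted p under 0.05 with an array left out, 17 with arrays centred on their median, 15 of 29 with dim genes left out and 18 with the replicate number as a block (replicate block). Same-numbered arrays deviated from their group means with correlations between -0.25 and 0.28. No shared signal was seen, but such values cannot tell whether the samples were matched by number. The medians of the family and of each class stayed below 0 in every alternative. Of 827 refitted collagen differences, 16 changed sign, in 4 genes near 0. Col4a6 was at 0.020 with median centring, 0.0016 with array weights and -0.021 to 0.016 with an array left out. Col28a1 was at 0.0073 with repeated quantile normalization, 0.018 with median centring, 0.011 with array weights, 0.022 without runner 1 and control 1 and -0.079 to 0.064 with an array left out. Col4a1 ran from -0.078 to 0.010 and Col20a1 from -0.00039 to 0.041 with an array left out. Myh1 was at 0.020 with array weights (-0.25 to 0.0026 with an array left out) and Tnnt3 at 0.033 (-0.28 to 0.039). For partner chains, Col4a3 with Col4a4 lost its call with repeated quantile normalization (r = 0.77) and median centring (0.80). Without the 2 farthest arrays, which leaves 8, the calls ended for Col4a1 with Col4a2 (0.88), Col4a3 with Col4a4 (0.84) and Col6a1 with Col6a2 (0.77), and Col8a1 with Col8a2 was at -0.027. With an array left out r ran from -0.11 to 0.79 for Col11a1 with Col11a2, 0.58 to 0.91 for Col5a1 with Col5a2, 0.20 to 0.74 for Col2a1 with Col11a1 and 0.58 to 0.79 for Col9a1 with Col9a2. The cause was not tested. The number of arrays limits every value.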

Other observations

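Secreted and membrane proteins that hold a collagen-like helix without being collagens were below 0 in 31 of 38 measured genes (28 with arrays centred on their medians), with a median difference of -0.078. At an unadjusted limma p under 0.05, 5 were lower and 0 higher (3.92% and 3.21% of all genes), and 0 passed at an adjusted p under 0.05. The members with the smallest p were the macrophage scavenger receptor gene Marco (-0.20 ± 0.067 SE), Scara3 (-0.28 ± 0.097) and the elastic fibre genes Emilin2 (-0.19 ± 0.075) and Emilin1 (-0.13 ± 0.053). Every runner lay below every control for 2 of the 38, Marco and Emilin1, beside 0.548% of all genes. The count of 5 was 11 without runner 1 or with array weights, 12 without runner 1 and control 1, 3 with median centring, 2 without runner 3 or runner 4 and 3 without control 2. The share of all genes in those fits is not given, so these counts cannot be set against it.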
